A study of Erysimum cheiri and Matthiola incana and Raphanus sativus with 44 samples.

Results

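Floral scent in the petals of the Brassicaceae was followed through 10 genes of volatile synthesis, 10 of 34131 loci in every deposited table. They are the monoterpene synthases TPS14 (AT1G61680), TPS10 (AT2G24210) and TPS24 (AT3G25810), the sesquiterpene synthases TPS21 (AT5G23960) and TPS11 (AT5G44630), the cytochromes P450 CYP76C1 (AT2G45560), CYP76C3 (AT2G45580) and CYP71B31 (AT3G53300), the methyltransferase BSMT1 (AT3G11480) and the aldehyde synthase AAS (AT2G20340). The genes were chosen by locus identifier, with their FPKM (fragments per kilobase, scaled to library size) in these same libraries known. Their levels are therefore given as a description with no test. All 10 loci were found in all 10 species tables.

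Petals of partly open flowers from greenhouse plants of 10 species were sequenced, in 22 forms with 2 samples each, for a study of flower colour. The series calls the samples biological replicates, and nothing says that they came from separate plants, so the spread between them may be partly technical. The forms carry title codes: PI of Aubrieta x cultorum (pink), Y of Brassica oleracea (yellow), Y of Eruca sativa (brownness), P, O, Y and B of Erysimum cheiri, P (pink) and PI (violet) of Iberis amara, and W (white) and P (violet) of Lobularia maritima. The others are LP (violet) and P (white-violet) of Malcolmia maritima, W (white), LP (modena), RB (pink) and DP (lavender) of Matthiola incana, W (white-violet) and P (violet) of Orychophragmus violaceus, and W (violet), LP (white-violet) and DP (violet) of Raphanus sativus. In Erysimum the colour labels are yellow for P and for Y, pink for O and orange for B, while the Y samples titled Erysimum are labelled with the organism Eruca and those titled Eruca with Erysimum. All codes, colours and organisms are as labelled, and groups here follow the title codes.

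Petal scent is made from several precursor pools. Terpene synthases turn prenyl diphosphates of the plastid and the cytosol into monoterpenes such as linalool and sesquiterpenes such as caryophyllene, and P450 enzymes can oxidise linalool further. Benzenoid volatiles derive from phenylalanine: AAS forms phenylacetaldehyde, and BSMT1 methylates benzoic and salicylic acid to their volatile esters. These roles are known from Arabidopsis thaliana, and no volatile was measured here.

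In total 43 libraries were counted, because both Aubrieta columns hold identical values. Each library listed between 4910 and 14198 loci above 0. In 7 species low values of part of the loci fell on whole multiples of 1 read within a tolerance of 0.1. Among loci seen in enough libraries to tell, such a step was found for 46.8% in Malcolmia, 57.6% in Erysimum and up to 86.2% in Raphanus. At a locus of typical unit 1 read stood for 0.425 FPKM in the deepest Malcolmia library and for 11.8 FPKM in the shallowest Raphanus library. The depth of the Aubrieta, Brassica and Eruca libraries is unknown. The petal markers AP3, PI, AP1 and SEP3 summed to between 720.0 FPKM in Aubrieta and 8305 FPKM in Eruca, apart from 14752 FPKM in Erysimum P library b. The carpel markers AG, SHP1, SHP2 and STK summed to at most 9.996 FPKM outside Raphanus. In whole petals, fewer cells that express a gene and less RNA per cell cannot be told apart.

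Library b of Erysimum form P stood apart from its genus. Across 13698 loci, its Pearson correlation with the mean of the other Erysimum libraries was 0.532, and with the Orychophragmus mean it was 0.809. The other 7 Erysimum libraries had correlations of 0.916 to 0.934 with their own genus. Of 42 libraries with a companion of their genus, 41 were nearest to their own genus. Erysimum results are therefore given with and without library b of form P. Its columns are headed PI, and they were taken as the titles coded P.

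The benzenoid genes held the high levels of the set. AAS had the highest FPKM of the 10 genes in 21 of 43 libraries, BSMT1 in 16, CYP76C3 in 4, and CYP76C1 and TPS10 in 1 each. CYP76C1 led in Erysimum P library b, at 9.43 FPKM. TPS10 led in Iberis PI library 1, at 9.72 FPKM, and in every Iberis library the lead rested on few reads. AAS was above 0 in 39 libraries, BSMT1 in 35 and CYP76C3 in 32, each in all 10 species. The terpene synthases were rarely detected: TPS10 in 8 libraries, TPS21 in 7 and TPS24 in 2, while TPS14 and TPS11 were listed at 0 in all 43.

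**Figure D1:**
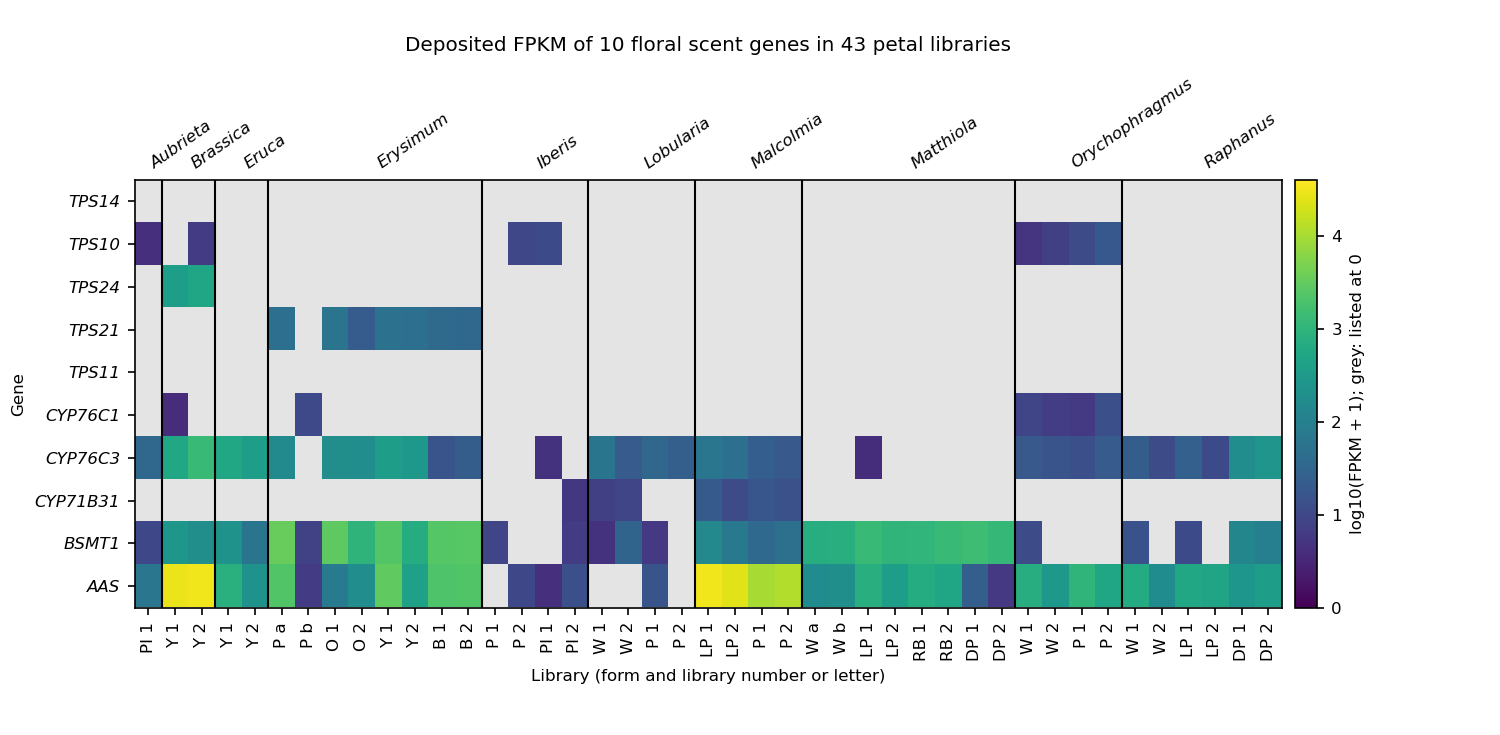
Deposited FPKM of the 10 genes (rows) in 43 petal libraries (columns, grouped by genus), as colour on a log10(FPKM + 1) scale, with grey for a value listed at 0. AAS and BSMT1 fill most columns, TPS21 is seen in Erysimum and TPS24 in Brassica, and TPS14 and TPS11 are grey throughout.

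Among the monoterpene synthases, TPS14, a linalool synthase of Arabidopsis flowers, was listed at 0 in every library. In the 7 species with steps, 3 reads of a typical locus are worth 1.28 FPKM in Malcolmia LP library 1 and 35.5 FPKM in Raphanus W library 1, so the level that a 0 still allows differs widely between libraries. TPS24, which makes several monoterpenes, was listed at 377.0 and 519.5 FPKM in the Brassica oleracea libraries, 448.3 ± 100.7 (SD, n = 2). It ranked 171st and 161st of the loci above 0 there, and it was listed at 0 in the other 41 libraries. Its neighbours TPS23 (AT3G25830) and TPS27 (AT3G25820), monoterpene synthases whose sequences are close to each other, were listed at 0 in all 43 libraries, so reads of this family may have been assigned unevenly.

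TPS10, another linalool synthase of Arabidopsis, stayed low wherever it was seen. The value was 3.26 FPKM in Aubrieta, 0 and 5.60 FPKM in Brassica, 0 and 8.64 FPKM in Iberis P and 9.72 and 0 FPKM in Iberis PI. In Orychophragmus it was listed at 3.93 and 6.40 FPKM in W and at 10.6 and 17.3 FPKM in P. Both P libraries lay above both W libraries by a ratio of means of 2.70, but these values are 1 and 2 reads in W and 2 and 3 reads in P. Of the 13226 Orychophragmus loci that passed the filter, 21% had both P values above both W values.

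Of the sesquiterpene synthases, TPS21, the caryophyllene synthase of Arabidopsis stigmas, was seen in Erysimum and in no other genus. Form P held 47.8 FPKM in library a and 0 in library b. The O libraries held 59.0 and 20.8 FPKM, the Y libraries 51.0 and 46.9, and the B libraries 38.7 and 35.03. Without P library b all 7 Erysimum libraries were between 20.8 and 59.0 FPKM, and the forms overlapped. TPS11, which forms a mixture of sesquiterpenes and is expressed in Arabidopsis flowers, was listed at 0 in every library.

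The linalool-oxidising P450 genes differed from each other in spread. CYP76C1 was listed at 8.33 and 5.95 FPKM in Orychophragmus W and at 4.93 and 12.1 FPKM in P, where the forms overlapped. Elsewhere it was seen in Brassica library 1 at 2.87 FPKM and in Erysimum P library b at 9.43 FPKM. CYP71B31, which can hydroxylate linalool, was listed at 19.5 and 10.1 FPKM in Malcolmia LP and at 16.2 and 12.8 in P, in overlap. It also had 2 reads in each Lobularia W library (6.32 and 8.01 FPKM), none in Lobularia P, and 1 read in Iberis PI library 2 (4.47 FPKM). In Lobularia 10.7% of 8801 loci had both W values above both P values.

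CYP76C3, a linalool-metabolising P450 whose locus lies in a row of close relatives with CYP76C1, CYP76C2 and CYP76C4, was the most widely seen of the P450 genes. Reads of such relatives may be split between the loci. It was highest in Brassica, at 548.4 and 1317 FPKM, and in Eruca, at 540.5 and 362.0 FPKM. Aubrieta held 34.9 FPKM, Lobularia W 59.9 and 19.998, and Lobularia P 32.2 and 23.4. Orychophragmus held 18.2 and 14.8 FPKM in W and 12.3 and 19.99 in P. The forms of Lobularia and of Orychophragmus overlapped. In Iberis and in Matthiola it was listed above 0 in 1 library each, at 3.75 and 2.93 FPKM, which is 1 read in each case.

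In Raphanus, CYP76C3 set form DP apart. It was listed at 22.1 and 10.96 FPKM in W, at 24.7 and 9.85 FPKM in LP, and at 182.6 and 248.6 FPKM in DP. Both DP libraries lay above all 4 others, which overlapped, and the ratio of means was 12.8. The reads behind these values were 2 and 1 in W, 3 and 1 in LP, and 39 and 75 in DP. Both DP libraries were also the highest of Raphanus for BSMT1. It was listed at 13.3 and 0 FPKM in W, 9.89 and 0 FPKM in LP, and 129.6 and 95.8 FPKM in DP. The reads behind these values were 1, 0, 1, 0, 23 and 24. In Raphanus 17.8% of 11448 loci had both DP values above every other library. AAS did not separate the forms, at 670.3 and 168.8 FPKM in W, 558.9 and 490.9 in LP, and 258.8 and 378.3 in DP.

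Markers of other floral organs moved with the Raphanus forms. The summed FPKM of the pollen markers VGD1 and PPME1 was 4595 and 4194 in W, 791.1 and 807.3 in LP, and 78.6 and 142.0 in DP, and 1 of these markers was at 0 in DP library 1. The carpel markers summed to 270.8 and 49.8 FPKM in W and 95.0 and 57.4 in LP, and all 4 were at 0 in both DP libraries. The petal markers summed to 2670 and 2854 FPKM in W, 2128 and 1736 in LP, and 6328 and 6638 in DP. Plastid-encoded loci held 69.2% and 4.08% of the FPKM in W, 25.1% and 20.1% in LP, and 1.69% and 0.872% in DP, so W overlapped with LP. The part of these differences in the CYP76C3 and BSMT1 levels was not tested.

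In Erysimum, CYP76C3 was low in form B. It was listed at 158.3 FPKM in P library a and 0 in P library b, at 187.0 and 182.0 in O, at 371.9 and 284.7 in Y, and at 14.9 and 21.8 in B. Without P library b, both B libraries lay below the other 5, by a ratio of means of 12.9, and the Y libraries lay above all others. With it, the ratio was 10.8 and B overlapped with P. Without P library b, 7.9% of 13981 Erysimum loci had both B values below every other library, and 7.66% had both Y values above. In Malcolmia, CYP76C3 was at 62.2 and 46.3 FPKM in LP and 22.6 and 17.9 in P.

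**Figure D2:**
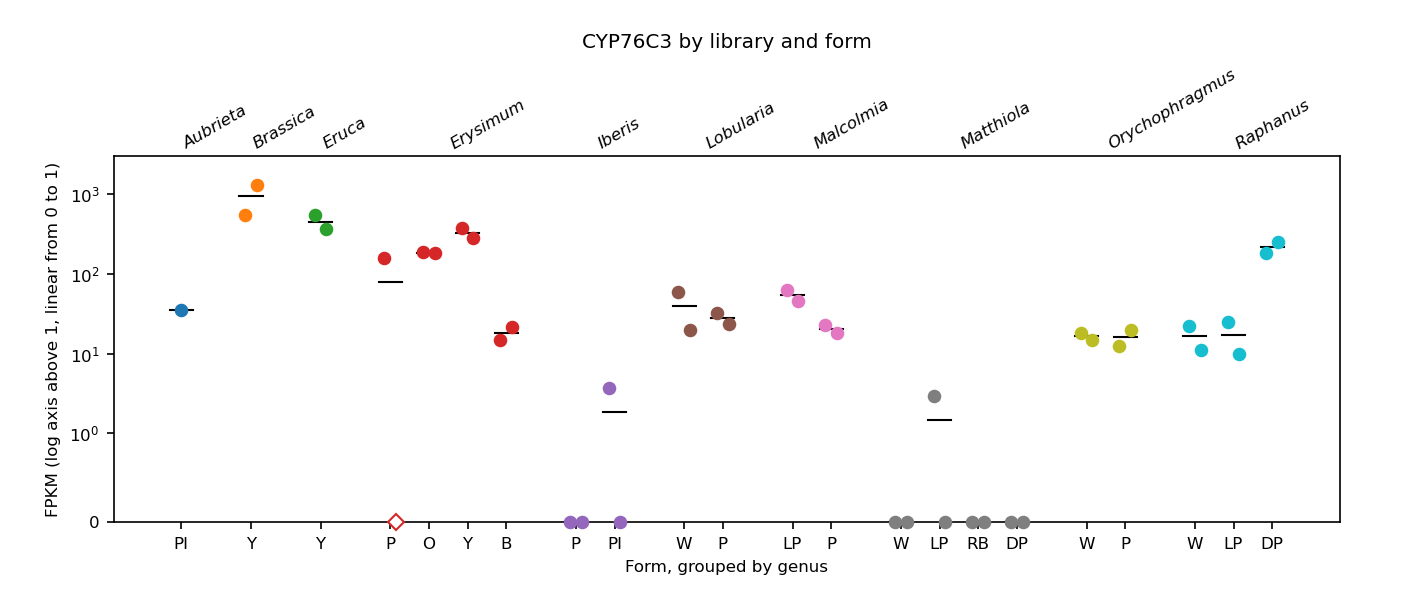
FPKM of CYP76C3 (y axis, logarithmic above 1 and linear from 0 to 1) in each library by form and genus. Points are libraries, the open diamond is Erysimum P library b, and bars are the means of all libraries of a form. Raphanus DP lies at 182.6 and 248.6 FPKM, above W and LP, and Erysimum B at 14.9 and 21.8.

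BSMT1, the carboxyl methyltransferase that forms methyl benzoate and methyl salicylate, was highest in Erysimum and Matthiola. In Erysimum it was listed at 3343 FPKM in P library a and 7.10 FPKM, 2 reads, in P library b. The O libraries held 2851 and 971.7 FPKM, the Y libraries 2365 and 716.9, and the B libraries 2427 and 2587. In P library a it ranked 10th among 12842 loci above 0. Without P library b the 7 values ran from 716.9 to 3343 FPKM, with P library a the highest, and O overlapped with Y and with B.

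In Matthiola incana BSMT1 ran from 738.8 to 1467 FPKM. Levels were 738.8 and 785.9 FPKM in W, 1245 and 1037 in LP, 1085 and 1250 in RB, and 1467 and 1161 in DP. Form W, at 762.3 ± 33.3 (SD, n = 2), lay below all 6 other libraries, whose median was 1203 FPKM, and the 3 coloured forms overlapped. In Matthiola 7.33% of 13088 loci had both W values below every other library. A few loci took much of the W libraries: the top locus held 35.8% and 50.7% of the FPKM of W libraries a and b. When each library was scaled to its nuclear sum, the log2 ratio of W to the other forms went from -0.66 to -2.21. The median of all loci went from -0.28 to -1.05. That median was taken with 1 FPKM added to each mean, which shrinks the ratios of low loci. The BSMT1 ratio had nothing added, so the sizes of these shifts cannot be compared.

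Outside Erysimum, Matthiola and Raphanus, BSMT1 was highest in Brassica, Eruca and Malcolmia. It was listed at 274.7 and 187.0 FPKM in Brassica and at 225.8 and 59.2 FPKM in Eruca. In Malcolmia LP it was at 147.8 and 70.6 FPKM, and in P at 36.1 and 48.6. Aubrieta held 8.92 FPKM, and the Lobularia libraries 3.77 and 28.9 FPKM in W and 4.83 and 0 in P. Iberis P held 7.99 and 0 FPKM, Iberis PI 0 and 5.37, and Orychophragmus W 10.95 and 0, while both Orychophragmus P libraries were listed at 0. Those Iberis and Orychophragmus values are 1 or 2 reads.

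**Figure D3:**
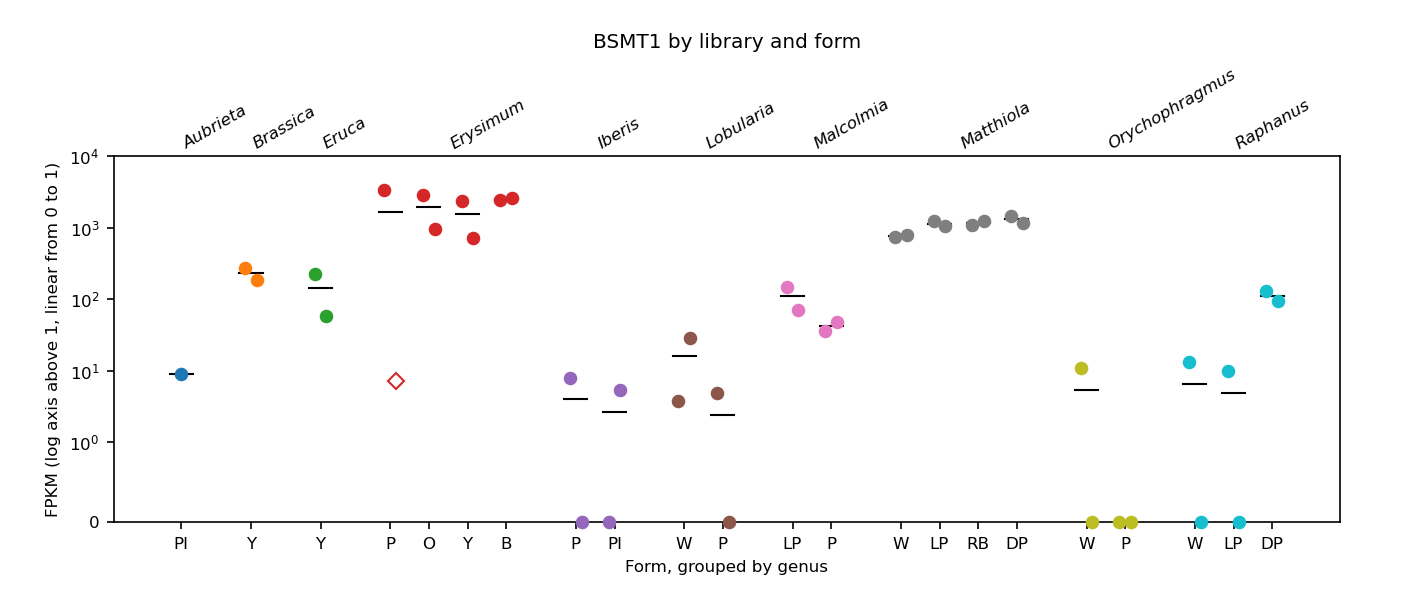
FPKM of BSMT1 (y axis, logarithmic above 1 and linear from 0 to 1) in each library by form and genus. Points are libraries, the open diamond is Erysimum P library b at 7.10 FPKM, and bars are the means of all libraries of a form. The Matthiola libraries lie between 738.8 and 1467 FPKM, and Raphanus DP lies above Raphanus W and LP.

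AAS, which decarboxylates and oxidises phenylalanine to phenylacetaldehyde in Arabidopsis, reached the top of some libraries. In Brassica oleracea it was listed at 28844 and 32255 FPKM, 30550 ± 2412 (SD, n = 2), and it ranked 2nd in both libraries, with 6.07% and 5.37% of their summed FPKM. In Malcolmia it was listed at 31276 and 24473 FPKM in LP, with ranks 2 and 1, and at 9907 and 11806 FPKM in P, with ranks 7 and 6. Across species these values stand side by side without a test, since reads of all species were assigned to Arabidopsis loci and divergence from Arabidopsis can lower a value.

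In Malcolmia the 3 widely seen genes separated the forms in one direction. The ratio of the LP mean to the P mean was 2.57 for AAS, 2.58 for BSMT1 and 2.68 for CYP76C3, and for each gene both LP libraries lay above both P libraries. With 4 libraries this order is common: 32.7% of 12871 Malcolmia loci had it, so the order itself does not set these genes apart. The median log2 ratio of LP to P over all loci was 0.06, against 1.36 for AAS, 1.37 for BSMT1 and 1.42 for CYP76C3. The median was taken with 1 FPKM added to each mean, which shrinks the ratios of low loci. The ratios of the 3 genes had nothing added. Scaling to the nuclear sum moved the median of all loci to 0.61 and these ratios to 2.01, 2.001 and 2.08. Without LP library 1 the log2 ratio of BSMT1 was 0.74.

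In Matthiola AAS was lowest in form DP. It was listed at 172.6 and 196.1 FPKM in W, 757.2 and 384.8 in LP, 704.5 and 522.5 in RB, and 24.1 and 4.86 in DP. The DP libraries, with 6 and 2 reads, lay below all 6 others, which held 30 to 285 reads. The mean of those 6 libraries was 31.5 times the DP mean. As a log2 ratio of DP to the others this is -4.98, and it was -6.55 without DP library 1 and -4.24 without DP library 2. W lay between DP and the other forms, and LP and RB overlapped. In Matthiola 1.96% of loci had both DP values below every other library. The DP libraries held AAS at its lowest and BSMT1 at 1161 and 1467 FPKM, within or above the range of LP and RB.

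In Erysimum AAS was listed at 2273 FPKM in P library a and 5.33 FPKM, 2 reads, in P library b. The O libraries held 82.6 and 181.3 FPKM, the Y libraries 2971 and 422.2, and the B libraries 2178 and 2204. Without P library b both O libraries lay below the other 5, by a ratio of means of 15.2, an order that 3.25% of Erysimum loci had. With P library b the ratio was 12.7, or -3.67 as the log2 ratio of O to the other forms, and O overlapped with P. That log2 ratio was -4.34 without O library 2. TYDC (AT4G28680), a tyrosine decarboxylase related to AAS, was at 219.8 and 19.3 FPKM in the O libraries and at 0 in the other 6. How reads were divided between AAS and TYDC was not tested.

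In the remaining species AAS separated no forms. It was listed at 816.2 and 225.9 FPKM in Eruca, and at 63.3 FPKM in Aubrieta. Orychophragmus held 721.8 and 282.4 FPKM in W and 1019 and 525.5 in P. In Iberis it was at 0 and 9.08 FPKM in P and 3.40 and 12.1 in PI, or 0 to 3 reads. In Lobularia it was at 14.6 FPKM, 4 reads, in P library 1 and at 0 in the other 3 libraries, where 3 reads would be 8.61 to 10.8 FPKM.

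**Figure D4:**
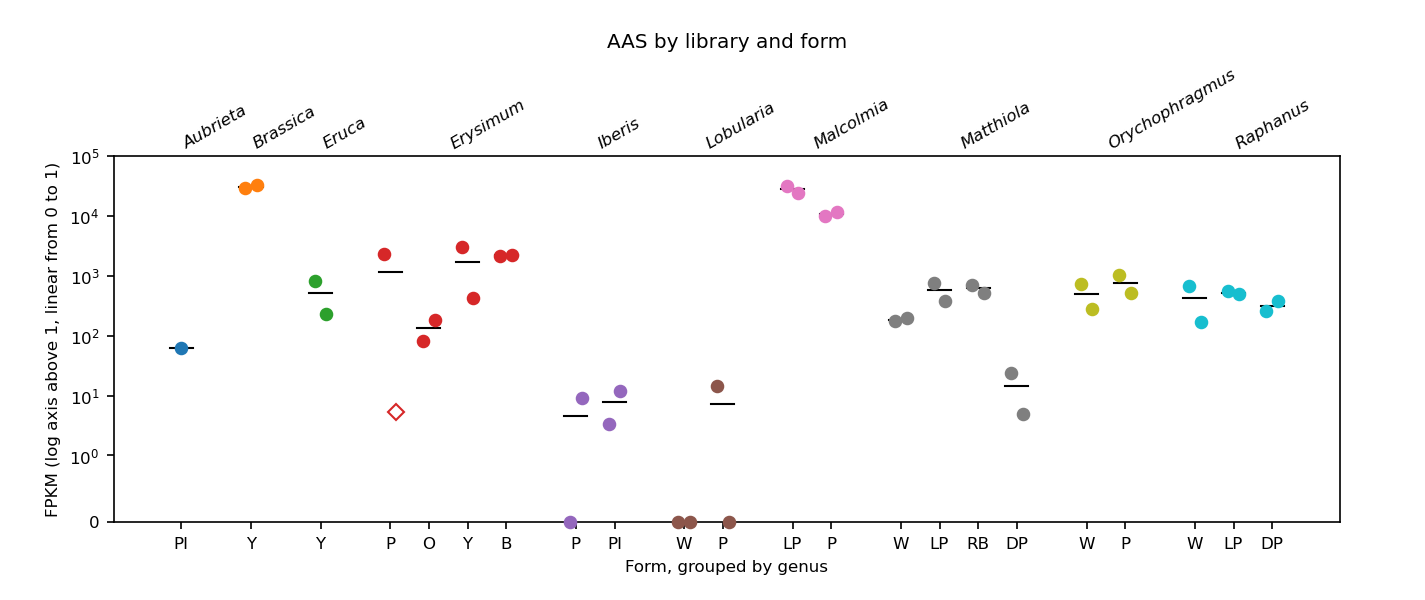
FPKM of AAS (y axis, logarithmic above 1 and linear from 0 to 1) in each library by form and genus. Points are libraries, the open diamond is Erysimum P library b at 5.33 FPKM, and bars are the means of all libraries of a form. Brassica and Malcolmia LP lie between 24473 and 32255 FPKM, and Matthiola DP at 24.1 and 4.86.

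Within each species with several forms, limma's moderated F-test over forms was fitted to log2(FPKM + 1) of all loci whose mean reached 1 FPKM in some form, with Benjamini-Hochberg adjustment and a call at an adjusted p under 0.05. The members were chosen on these values, so their counts are given beside the background and nothing is read from them. In Matthiola 1 of 3 members that passed the filter was called, AAS, against 4.06% of all loci. In Raphanus 1 of 3 was called, CYP76C3, against 11.5%. In Malcolmia 3 of 4 had an unadjusted p under 0.05, and the share of all loci at that level is not given. At the adjusted threshold 0 of these 4 were called, against 4.09% of all loci. That background rests on the settings: its 526 calls fell to 2 with a pseudocount of 0.1 and to 0 without LP library 1 or either P library. In Orychophragmus 0 of 5 were called against 4.94%, and none had an unadjusted p under 0.05. In Erysimum 0 of 5 were called against 0.0338%, and without P library b 0 of 4 against 0.0143%. In Iberis 0 of 5 were called and in Lobularia 0 of 4, against 0% of all loci in both. At an unadjusted p under 0.05 they had 0 and 1 members, again with no share of all loci given. The AAS call in Matthiola was absent without either W, either LP or either RB library. The CYP76C3 call in Raphanus was kept without LP library 1 and absent without any other single library.

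The pathway around the members was described by 60 further loci: 16 terpene synthases, 11 loci of plastid and 10 of cytosolic precursor supply, 7 P450 genes and their reductases, 9 methyltransferases and other volatile enzymes, and 7 regulators. These lists were chosen with earlier results of these data known, so the counts and p values below are no independent test of the pathway. Of the 16 other terpene synthases, 12 were listed at 0 in all 43 libraries, and 4 were above 0 in some: TPS02, TPS03, TPS04 and TPS08.

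In Orychophragmus 7 of 39 tested loci were called, all higher in P, against 4.94% of all loci. The largest difference among them was in AACT2, which opens the cytosolic mevalonate route, at 20.1 and 13.1 FPKM in W and 162.8 and 164.9 in P, a difference of 3.26 ± 0.29 (SE) in log2(FPKM + 1) (limma, adjusted p = 0.0331, n = 2 and 2). HMGS and HMGR1, the next enzymes of that route, rose from form means of 170.0 and 50.1 FPKM to 469.2 and 288.4 FPKM (limma, adjusted p = 0.0429 and 0.0470). In the plastid route DXR rose from 313.7 to 1550 FPKM (adjusted p = 0.0242), HDS from 665.1 to 1791 (adjusted p = 0.0243) and HDR from 163.8 to 486.0 (adjusted p = 0.0374). The auxin response factor ARF8, which acts in petal growth and flower maturation, rose from 177.2 to 708.0 FPKM (adjusted p = 0.0353). In all 7 both P libraries lay above both W libraries, an order that 21% of the 13226 loci had. It follows largely from taking called loci and adds no support. None of the 7 was called without P library 1, 3 of the 7 were called without W library 2 and 2 of the 7 without W library 1 or without P library 2. The pollen markers summed to 712.8 and 634.3 FPKM in W and to 30.3 and 0 in P, and their part in these differences was not tested.

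In Matthiola 2 of 37 tested loci were called, HMGS and ARF8, against 4.06% of all loci. HMGS, the mevalonate enzyme, was at 149.8 and 236.9 FPKM in W, 863.1 and 585.1 in LP, 1401 and 1185 in RB, and 942.9 and 1064 in DP (limma F-test, adjusted p = 0.0136). W lay below all 6 other libraries, an order that 7.33% of loci had. ARF8 was at 468.3 and 470.1 FPKM in W, 437.7 and 343.1 in LP, 782.6 and 773.1 in RB, and 355.0 and 377.3 in DP (limma F-test, adjusted p = 0.0427). RB lay above all others, an order that 4.92% of loci had. Both loci were taken because they were called, so these orders add no support. Neither was called without either RB library, ARF8 also lost its call without W library b, DP library 1 or DP library 2, and both lost theirs in the fit without a variance trend.

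In Raphanus 2 of 34 tested loci were called, SPL9 and ARF8. The share over all loci was 11.5%. SPL9, a factor of the age-dependent flowering pathway, was at 0 in both W libraries, at 9.31 and 11.1 FPKM in LP and at 15.9 and 22.5 in DP (limma F-test, adjusted p = 0.0339). At a typical locus 3 reads would be 35.5 and 35.3 FPKM in the W libraries, and 1 read 8.82 and 10.6 FPKM in the LP libraries. At this depth the 0 in W was therefore not distinguishable from the DP level. ARF8 was at 92.4 and 103.7 FPKM in W, 467.4 and 384.2 in LP, and 177.2 and 121.7 in DP (limma F-test, adjusted p = 0.0398), with no overlap between forms. Of all loci, 6.49% had both LP values above every other library and 5.75% had both W values below. The ARF8 call was absent without either W or either LP library. No locus of the 40 tested in Erysimum, the 31 in Iberis, the 28 in Lobularia or the 38 in Malcolmia was called by limma. At an unadjusted p under 0.05 these species had 5, 2, 0 and 12 loci. The share of all loci at that level is not given, so no excess can be read from these counts.

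Terpene synthases outside the 10 genes were the most abundant ones in several species. In Orychophragmus the highest was TPS02, which Arabidopsis ecotypes use for ocimene, at 81.6 and 129.8 FPKM in W and 126.8 and 167.4 in P. In Malcolmia it was TPS04, the geranyllinalool synthase, at 403.2 and 190.3 FPKM in LP and 101.1 and 102.4 in P. In Matthiola it was TPS03, an ocimene synthase, with a lowest value of 17.6, a median of 38.8 and a highest value of 95.2 FPKM over 8 libraries. In Brassica it was the member TPS24, with TPS03 at 7.93 to 16.7 FPKM. In Erysimum it was TPS21 in the 7 libraries other than P library b, where it was TPS02. In Aubrieta and Iberis it was TPS10. Raphanus listed TPS03 at 9.14 FPKM in LP library 2, Eruca listed TPS04 at 1.76 FPKM in library 2, and every listed terpene synthase was at 0 in Lobularia.

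CYP82G1, which turns geranyllinalool into a homoterpene, was at 163.3 and 158.3 FPKM in Orychophragmus W and at 35.7 and 84.0 in P. In Malcolmia, where TPS04 was high, it was between 3.84 and 6.26 FPKM. Erysimum P library b listed TPS02 at 36.9 FPKM and CYP82G1 at 174.1 FPKM, and both were at 0 in the other 7 Erysimum libraries.

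Of the regulators, MYB21, which in Arabidopsis controls petal expansion and sesquiterpene synthase genes, was above 0 in all 43 libraries. It ran from 516.5 to 2328 FPKM in Erysimum, with 516.5 in P library b, and from 996.8 to 1287 FPKM in Malcolmia. In Orychophragmus it was at 577.6 and 415.8 FPKM in W and 1227 and 1036 in P. Iberis had 15.1 to 76.5 FPKM of it, and there its close relative MYB24 held 984.3 to 2347 FPKM. In Lobularia MYB24 ran from 52.1 to 3498 FPKM. MYC2, a jasmonate-response factor that acts with MYB21 on terpene synthase genes, was at most 25.4 FPKM in any library. None of these 3 was called in any species in the fit as described. MYB21 and MYB24 were called in Orychophragmus with the replicate block, which called 2254 of all 13226 loci. MYC2 was called in Raphanus with a pseudocount of 0.1, which called 1964 of all 11448 loci. Fits without W library 1 in Lobularia and without either LP library in Raphanus also called MYB24 and MYC2, respectively. Those fits left a form with a single library and called more loci overall than the main fit.

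**Figure D5:**
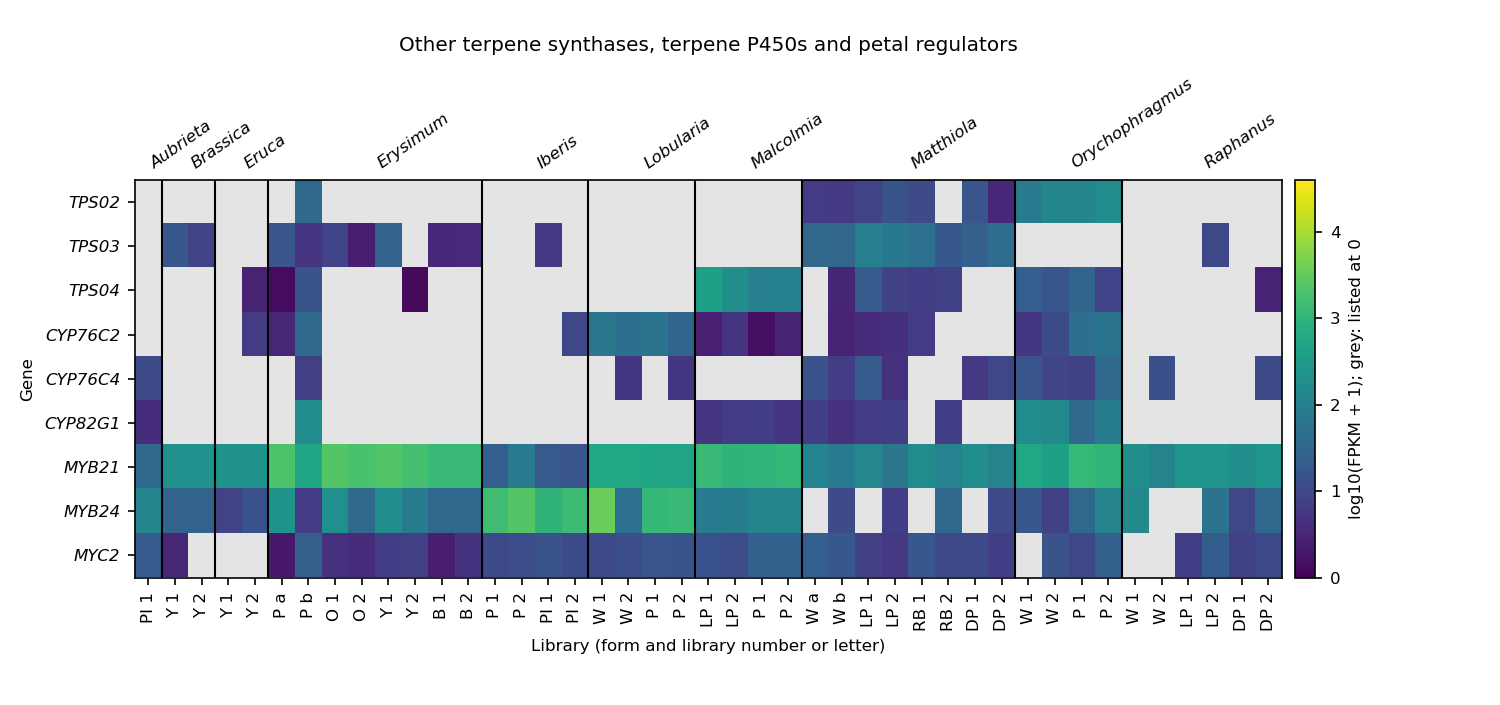
FPKM of other terpene synthases (TPS02, TPS03, TPS04), terpene P450 genes and the regulators MYB21, MYB24 and MYC2 (rows) in 43 libraries (columns, grouped by genus), on a log10(FPKM + 1) colour scale, with grey for a value listed at 0. TPS02 and CYP82G1 fill Orychophragmus, TPS04 fills Malcolmia, and MYB21 is above 0 in every column.

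The loci whose levels were most like those of a member were sought where the member was above 0 in all 8 libraries of a species, as Pearson's r of log2(FPKM + 1). The points share libraries and their depth, so the values are a description. In Matthiola the nearest loci to AAS were AT5G08530 (r = 0.983), AT3G63520 (0.967) and AT3G19450 (0.942), and 21 of 13088 loci had an r over 0.9. The nearest to BSMT1 were AT2G19080 (0.977), AT3G17850 (0.974) and AT3G10350 (0.971), and 54 loci had an r over 0.9. In Erysimum BSMT1 had 1291 loci with an r over 0.9 among 8 libraries and 147 among the 7 without P library b, and its nearest locus, AT2G02080, went from 0.997 to 0.967. AAS had 80 and 30 such loci, with AT4G10620 at 0.988 and 0.968.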

How the data were processed

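Petal RNA was sequenced as directional poly(A) libraries, per the labels' protocols. The authors deposited FPKM per Arabidopsis locus, 1 value per library, and the series states that Arabidopsis was the reference. TopHat, Cufflinks, Cuffdiff and DESeq are listed, with no version, per the submitters' processing notes. The genome build, annotation and strand setting are not given in the sources used here, so coordinates and sequences are not given. Raw counts were not used here.

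Groups follow the title codes. Both Matthiola W columns share 1 heading, and the Erysimum columns taken as form P are headed PI with a number. Neither pair was matched to single samples, so they are called libraries a and b and enter no replicate block. The number of sample columns left out was 0, and both identical Aubrieta columns count as 1 library. The members and the lists were chosen with earlier results of these data known. Every member is named. Context loci are named where called, with MYB21, MYB24, MYC2 and the highest terpene synthase of each species, and others singled out (TYDC, CYP82G1, TPS23, TPS27) were chosen after their values were seen. Where a likeness was sought, the 3 loci with the highest r were taken, of which the first is printed for Erysimum.

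Within a species, log2(FPKM + 1) of every locus whose mean reached 1 FPKM in some form was fitted with limma 3.58.1 under R 4.3.3. The fit held all forms, used eBayes with a trend on intensity, and adjusted p by Benjamini and Hochberg across the tested loci of the species. A pseudocount of 1 understates ratios of low loci. Species were never fitted together. Reads were recovered from FPKM as multiples of the smallest step of a locus, for TPS10, CYP76C3, CYP71B31, BSMT1 and AAS. The other members had no resolved step. Whole steps were checked up to 12 reads, and higher counts printed here are FPKM divided by the step and rounded. The scripts were tested on simulated data. Plots were made with matplotlib 3.10.9.

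Correlations between the deviations of same-numbered libraries ran from -0.05 to 0.37, the highest in Erysimum. The 3 species with 3 pairs of forms each had a pair below 0.1, and the other species have 1 pair, so the numbers were not taken to pair the samples. Alternatives were a pseudocount of 0.1, no filter, quantile scaling, no trend, a replicate block, each library left out, and Erysimum without form P or Y. For levels they were upper-quartile and nuclear-sum scaling. Giving Erysimum ratios without P library b was chosen after seeing the data.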

Additional observations from a re-analysis of the deposited data

How the results depend on the processing

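None of the calls of context loci or members held under every alternative run. Among the 60 context loci, 1 instead of 2 was called in Raphanus with quantile scaling and without the variance trend, and 5 with a pseudocount of 0.1. Over all 11448 Raphanus loci those settings called 542, 1334 and 1964, against 1315 in the main fit. Without the trend, 0 were called in Matthiola and 0 in Orychophragmus, against 290 of 13088 and 0 of 13226 loci. Among the members, quantile scaling gave 2 calls in Matthiola (AAS and BSMT1) and 0 in Raphanus, and 0 were called in either species without the trend. Quantile scaling called 398 of 13088 Matthiola loci. Without form P, 1 member was called in Erysimum, CYP76C3, against 8 of 13411 loci. The causes were not tested.

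With 1 library at a time left out, the called context loci of Erysimum numbered 0 to 14, those of Orychophragmus 0 to 5 and those of Raphanus 3 to 7. For Matthiola the range was 0 to 4, for Iberis and for Malcolmia 0 to 3, and for Lobularia 0 to 2. Called members numbered 0 to 5 in Erysimum, 0 in Malcolmia, and 0 to 1 in Iberis, Lobularia, Matthiola, Orychophragmus and Raphanus. The highest Erysimum counts came without P library a, where P library b stands alone for its form and is assumed to vary like the other forms. Calls over all Erysimum loci rose steeply in that fit as well, so its counts are not particular to the scent genes. Every fit of this kind leaves 1 form with a single library. In each of the other species, calls over all loci also moved away from the main fit in some or all of these fits. The ranges of context loci and members are therefore not particular to the scent genes, and nothing is read from them.

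With the replicate block the counts of context loci were 1 in Malcolmia (IDI1), 0 in Matthiola, 15 in Orychophragmus and 0 in Raphanus, and those of members were 1 in Malcolmia (CYP76C3), 0 in Matthiola and 0 in Raphanus. Over all loci the block called 891 of 12871 in Malcolmia, 1 of 12396 in Matthiola and 2254 of 13226 in Orychophragmus. The block left out Matthiola W and Erysimum P, so these fits also hold fewer forms. The calls over all loci moved as well: in Malcolmia from 526 to 2 with a pseudocount of 0.1, with no filter and with quantile scaling and to 1 without the trend, in Orychophragmus from 653 to 0 without the trend or without P library 1, in Matthiola from 532 to 0 and 1 without either RB library, and in Raphanus from 1315 to 35 with the block.

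None of the 10 ratios of member levels between forms that were recomputed reversed. The 10 were chosen where a form stood high or low. Outside Erysimum each of these forms lay wholly above or below the others, so leaving out 1 library could not reverse its ratio. The nuclear sum moved the log2 ratios of AAS, BSMT1 and CYP76C3 in Malcolmia to 2.01, 2.001 and 2.08, of BSMT1 in Matthiola W to -2.21 and of TPS10 in Orychophragmus P from 1.43 to 2.02. Upper-quartile scaling moved none by more than the spread between libraries. Leaving out 1 library gave log2 ratios from 0.74 to 1.80 for BSMT1 in Malcolmia from -6.55 to -4.24 for AAS in Matthiola DP, from -4.34 to -3.21 for AAS in Erysimum O and from 3.87 to 5.09 for BSMT1 in Raphanus DP. Depth limits the low values: 1 to 3 reads stand behind the members above 0 in Iberis and behind TPS10 in Orychophragmus.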
